A study of Mus musculus with 6 samples.

Results

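The protein components of the cytosolic ribosome are encoded by genes whose names start with Rpl (large subunit) or Rps (small subunit), together with Rplp0, Rplp1, Rplp2 and Rpsa. Genes were chosen by name alone: a name made of Rpl or Rps, a number and at most a short suffix, or 1 of those 4 names, with names marked as pseudogenes (-ps) left out. The rule matched 80 of the 39171 genes listed, and no measured value entered it. Of the 80 genes, 76 reached an average of 1 FPKM (fragments per kilobase of transcript, scaled to the mapped fragments of the library, a level corrected for gene length and library size) and were tested. The other 4, Rpl39l, Rps3a3, Rpl3l and Rpl10l, lay below it. A further 8 genes carry a ribosomal protein name by their identifier while the name cell of the deposited tables is blank, and these are described separately.

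Each ribosome holds a single copy of most of its proteins, so the genes are transcribed at similar molar levels in most cell types. Their mRNAs begin with a short stretch of pyrimidines, the terminal oligopyrimidine or TOP tract, through which the kinase mTORC1 and the protein Larp1 control their translation. Resting T cells keep a large store of ribosomal protein mRNA, and translation increases when the cells are activated.

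Splenic CD4+ T cells were taken from premenopausal C57BL/6 mice that were 10 weeks old at the start. The AngII group received angiotensin II, the peptide hormone that constricts vessels and raises blood pressure, at 800 ng/kg/min from an osmotic minipump for 14 days. The Control group was untreated over the same time, and whether it carried a pump is not given in the sources used here. Each group held 3 libraries, described as 3 mice a group, and both groups shared strain, ovarian status, starting age, tissue and the kit used to isolate CD4+ T cells.

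The starts of several genes are shown because the TOP tract is the sequence feature that joins the family. RefSeq start sites (build GRCm38.p6) were found for 57 of the 80 genes, with 69 starts in all. A run of at least 6 bases made only of C and T, opening with C within 5 bases of the annotated start, was present at 26 of the 69 starts (37.7%), against 3352 of 32851 starts of all genes (10.2%). The run was searched on the transcribed strand only. Among members at 100 FPKM or more it was present at 26 of 62 starts (41.9%). The 7 windows that follow run from 10 bases before the start to 20 bases from it, 5′ to 3′ on the transcribed strand, with the run in capitals. They cover a classical translational regulator (Rps6), a stalk protein (Rplp2), 3 further genes with a run (Rps10, Rps18 and Rpl35a), a paralog (Rpl22l1) and 1 gene without a run at this start (Rpl5). Other starts of Rpl35a, with windows at chr16:33056443-33056472 and chr16:33056504-33056533, have no run. The 7 windows are examples and do not reflect the share of starts with a run.
Rps6: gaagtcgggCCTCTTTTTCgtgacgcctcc
Rplp2: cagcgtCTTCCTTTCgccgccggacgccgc
Rps10: gcgcacgCCCCTTCCTTTCCagcctccgcc
Rps18: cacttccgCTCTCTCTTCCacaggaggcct
Rpl35a: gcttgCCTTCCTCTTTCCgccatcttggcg
Rpl22l1: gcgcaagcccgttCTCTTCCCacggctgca
Rpl5: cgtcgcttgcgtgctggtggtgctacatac
The windows lie at chr4:86857348-86857377 (minus strand) for Rps6, chr7:141447641-141447670 (plus) for Rplp2 and chr17:27635225-27635254 (minus) for Rps10. Those of Rps18, Rpl35a and Rpl22l1 lie at chr17:33955646-33955675 (minus), chr16:33056472-33056501 (plus) and chr3:28805498-28805527 (plus). Rpl5 starts within chr5:107900518-107900547 (plus). All 7 windows lie inside the bounds of their genes in the GENCODE M21 annotation, so each RefSeq start lies downstream of the outermost annotated start. A second feature, the letters CCGGAAG on either strand (CTTCCGG on the other), the core of an ETS factor motif, was present within 250 bases before to 50 bases after 25 of the 69 starts (36.2%), against 8.86% of all starts. A missing match says only that these letters are not in the window.

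The ribosomal protein genes were among the most abundant mRNAs of the cells. Of the 80 genes, 72 reached 100 FPKM averaged over the 6 libraries, from 344.6 for Rpl22l1 to 6573 for Rplp1, with a median of 2117 FPKM. These 72, called the abundant genes here, included 69 genes at 1000 FPKM or more, and only 54 genes outside the name rule reached that level. They made up 58 of the 100 genes with the highest mean in the files. The 5 highest held 15.7% of the summed FPKM of the 80 genes. The abundant genes spanned a 19.1-fold range, and the 8 others lay far below it, at 62.6 FPKM (Rps27l) or less. The 29 small subunit genes of the abundant set had a median level of 2497 FPKM and the 43 large subunit genes one of 2055 FPKM.

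**Figure D1:**
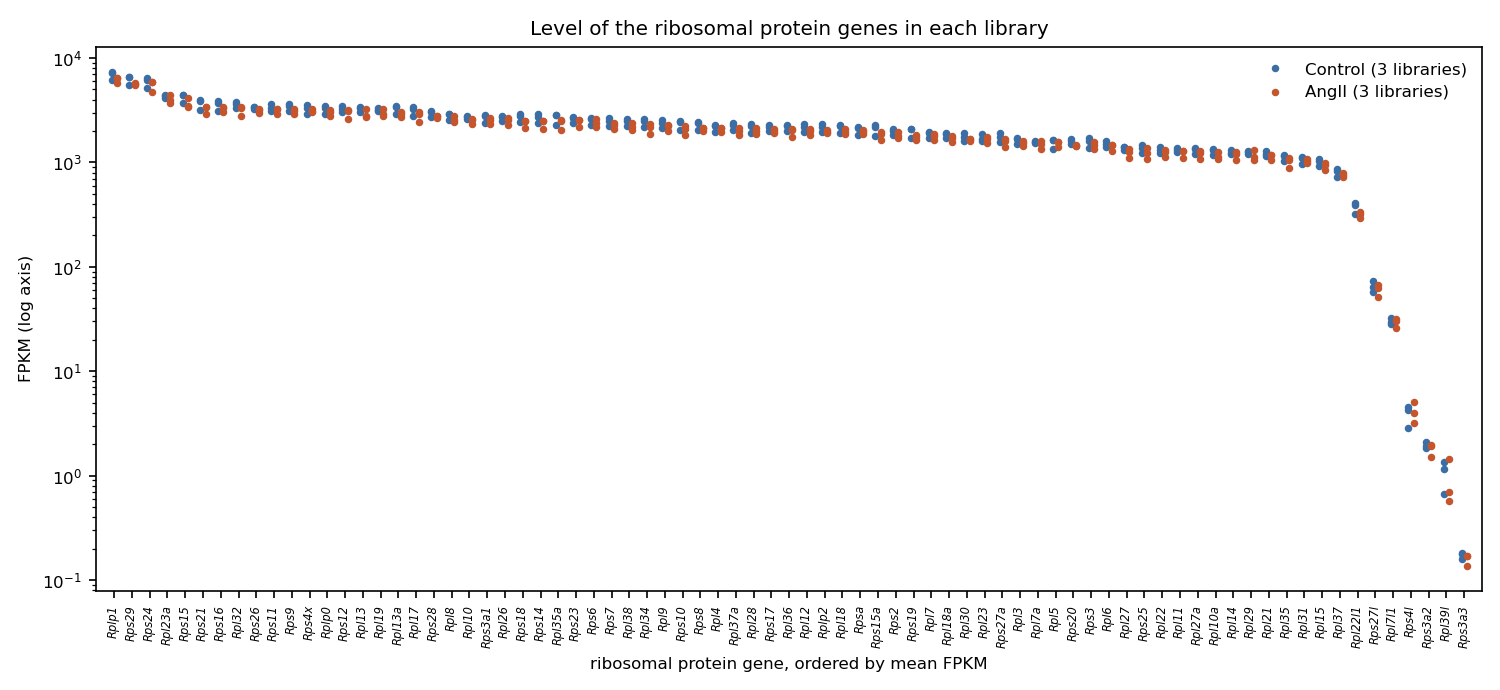
FPKM (log axis) of 77 of the 78 ribosomal protein genes with a mean above 0.1 FPKM, ordered by mean; each point is 1 library, blue for Control and orange for AngII. Most levels form a plateau between 1000 and 6573 FPKM with a steep drop at the end into the paralogs, and the colours overlap at nearly every gene.

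Rplp1, an acidic protein of the stalk that recruits translation factors, was the most abundant member. Listed in replicate order here and in what follows, its FPKM was 7225, 7401 and 6111 in the Control libraries and 5721, 6485 and 6492 in the AngII libraries. Control replicates 1 and 2 were the highest, AngII replicate 1 was the lowest, and the groups overlapped through Control replicate 3. Rps29, a small zinc-binding protein of the small subunit, followed with 6632, 6524 and 5574 in Control and 5565, 5717 and 5609 in AngII. Rps24, which is also mutated in Diamond-Blackfan anaemia, an inherited failure of red cell production, had 6149, 6511 and 5220 in Control and 4693, 5865 and 5856 in AngII. In both genes Control replicate 3 lay within the range of the AngII libraries.

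The next members by level were Rpl23a, Rps15, Rps21, Rps16 and Rpl32. Rpl23a, at the mouth of the exit tunnel where targeting factors dock, had 4324, 4450.4 and 4107 FPKM in Control and 3697, 3965 and 4473 in AngII, and its highest library was AngII replicate 3. Rps21, a small subunit protein found in eukaryotes, had 3886, 3970 and 3156 in Control and 2906, 3410 and 3385 in AngII. Rps16, near the decoding site, had 3703, 3908 and 3101 in Control and 3032, 3363 and 3355 in AngII. In both of these, AngII replicates 2 and 3 lay above Control replicate 3 and below the other Control libraries. The log2 fold changes were -0.09 for Rpl23a, -0.18 for Rps21 and -0.13 for Rps16.

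The comparison of AngII with Control asked whether angiotensin II changed the level of these mRNAs in CD4+ T cells. No ribosomal protein gene passed the test: 0 of 76 had a limma adjusted p below 0.05, against a background of 4 of 11842 genes tested (0.0338%), all 4 lower in AngII. At an unadjusted p below 0.05 the count was also 0 of 76, where 208 of all genes (1.76%) lay below it. The mean in AngII was nonetheless the lower one for 75 of 76 genes, against 52.0% of all genes tested, and for 54 of 76 after quantile normalization. The exception was Rps4l, a paralog with no coding part in GENCODE M21. The median log2 fold change of the 76 genes was -0.12, against -0.0040 over all genes tested, and single genes ranged from -0.23 (Rpl22l1) to 0.07 (Rps4l). All 72 abundant genes were lower in mean in AngII, with a median 7.83% below Control. In cell preparations such as these, fewer cells of a type and less RNA per cell cannot be told apart.

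The genes' differences lay close together. The SD of the log2 fold change over the 72 abundant genes was 0.04, and 54 of them lay within 0.05 of their median. For a single gene the limma 95% interval reached 0.23 on the log2 scale to either side (median over the 76 genes), and no gene's interval excluded 0. In only 1 of 76 genes, Rps20, did all AngII libraries lie below all Control libraries, where 3.48% of all genes tested did so. In no member did they all lie above, against 2.36% of all genes. Rps20, a protein of the small subunit head, had 1592, 1685 and 1499.5 FPKM in Control and 1429, 1453 and 1471 in AngII. The gap between the lowest Control and the highest AngII library was small beside the spread within Control, and its log2 fold change was -0.13 ± 0.07 (SE, limma unadjusted p = 0.0996, adjusted p = 0.9999). The smallest unadjusted limma p of any member was 0.0740 (Rpl22l1), and all 76 adjusted p-values were 0.9999.

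**Figure D2:**
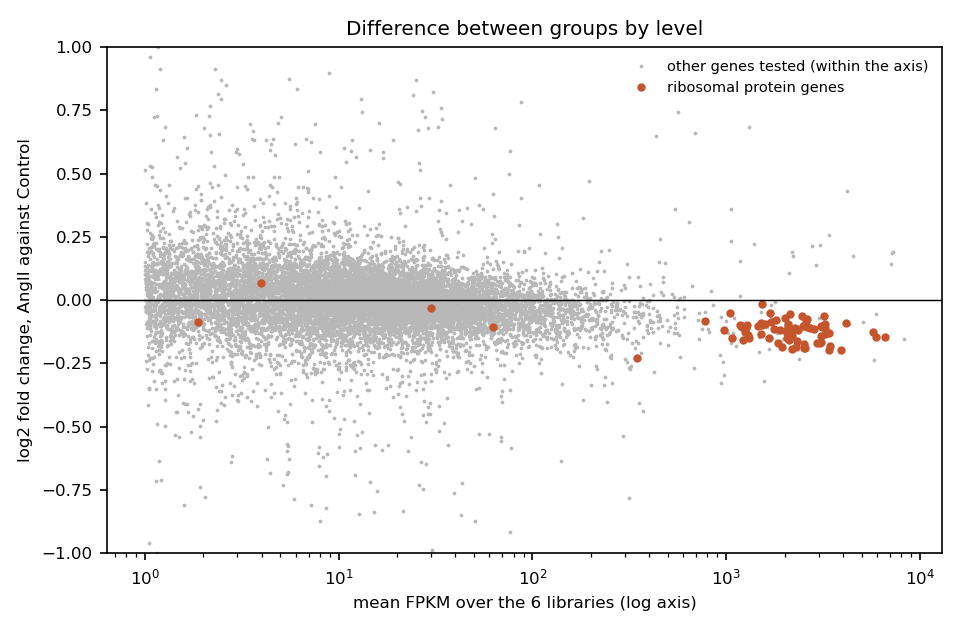
Mean FPKM over the 6 libraries (log axis) against the log2 fold change of AngII against Control; orange points are the 76 ribosomal protein genes tested, grey points the other genes tested whose change lies within the axis. The 72 abundant genes form a tight group at the right between -0.23 and -0.01, and of the 4 others at lower levels Rps4l lies above 0.

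All 3 stalk genes were lower in mean in AngII, with a median of -0.13. Rplp0, the base of the stalk, had 3329, 3449 and 2941 FPKM in Control and 2789, 3034 and 3201 in AngII, so that AngII replicates 2 and 3 lay above Control replicate 3. Rplp2, the partner of Rplp1, had 2177, 2328 and 1961 in Control and 1907, 1966 and 2028 in AngII. Here the lowest Control library lay below 2 AngII libraries, and the log2 fold changes of Rplp0 and Rplp2 were -0.11 and -0.13.

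Rpl5 and Rpl11 carry the 5S ribosomal RNA into the large subunit and, outside the ribosome, bind the p53 regulator Mdm2. Rpl5 had the smallest difference of the abundant genes, with 1631, 1644 and 1338 FPKM in Control and 1421, 1564 and 1567 in AngII. All 3 AngII libraries lay inside the Control range, and the log2 fold change was -0.01 with a 95% limma interval from -0.27 to 0.24. Rpl11 had 1301, 1387 and 1270.1 in Control and 1110.2, 1281 and 1283 in AngII, a log2 fold change of -0.11, with 2 AngII libraries above Control replicate 3. The difference between the 2 genes was not tested.

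Of the proteins that line the exit tunnel for the new peptide, Rpl4 had a log2 fold change of -0.05, Rpl17 of -0.17 and Rpl39, known by its identifier only, of -0.20. Rpl4 had 2249, 2271 and 1973 FPKM in Control and 1969, 2157 and 2119 in AngII, and its lowest libraries in both groups were nearly equal. Rpl17 had 3243, 3362 and 2757 in Control and 2422, 3025 and 2887 in AngII. Rpl39 had 1617, 1700 and 1456 in Control and 1298, 1408 and 1430 in AngII. All AngII libraries of Rpl39 lay below all Control libraries, with an unadjusted limma p of 0.0509 and an adjusted p of 0.9999.

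Along the mRNA channel of the small subunit, 5 of 5 genes examined were lower in mean, with a median of -0.11. Rps14, near the decoding site, had 2755, 2899 and 2399 FPKM in Control and 2073, 2502 and 2494 in AngII (log2 fold change -0.19). Rps26, which contacts mRNA upstream of the start codon, had 3395, 3425 and 3237 in Control and 2982, 3168 and 3275 in AngII (-0.09). Rps3, at the mRNA entry and also a DNA repair protein, had 1614, 1709 and 1368 in Control and 1351, 1574 and 1474 in AngII (-0.09). In each of these 3 genes at least 1 AngII library lay above Control replicate 3.

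Several small subunit genes are known for regulation or disease. Rps6, the substrate of S6 kinase whose phosphorylation reports mTORC1 activity, had 2581, 2653 and 2292 FPKM in Control and 2177, 2407 and 2630 in AngII. Its groups overlapped widely and its log2 fold change was -0.06, among the 3 nearest to 0 of the small subunit's abundant genes together with Rps4x (-0.06) and Rpsa (-0.07). Rpsa, a ribosomal protein also known as the laminin receptor, had 2140 and 2194 in Control replicates 1 and 2 and between 1833 and 2026 in the other 4 libraries. Rps19, the gene most often mutated in Diamond-Blackfan anaemia, had 2086, 2090 and 1716 in Control and 1652, 1764 and 1812 in AngII (log2 fold change -0.17). AngII replicates 2 and 3 of Rps19 lay above Control replicate 3. All 19 genes mutated in that anaemia that were listed were lower in mean in AngII, with a median of -0.12, and none passed the test. Rps27a, made as a fusion with ubiquitin, had 1767, 1898 and 1563 in Control and 1421, 1596 and 1687 in AngII (-0.15).

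The genes with the lowest fold changes, taken from the ranking and so given as a description, were Rpl22l1 (-0.23), Rps15 (-0.20), Rpl32 (-0.20), Rps10 (-0.19), Rps14 (-0.19), Rps18 (-0.19), Rpl34 (-0.18) and Rps15a (-0.18). Rps15, a protein of the subunit head, had 4432, 4430 and 3739 FPKM in Control and 3394, 3473 and 4131 in AngII. Rpl32, long used as a reference gene in RNA assays, had 3667, 3799 and 3339 in Control and 2782, 3301 and 3365 in AngII. Rps10, whose product is ubiquitylated when ribosomes collide and whose run of pyrimidines is shown above, had 2467, 2490 and 2034 in Control and 1815, 2078 and 2224 in AngII. In Rps15 and Rpl32 the highest AngII library passed the lowest Control library, and in Rps10 AngII replicates 2 and 3 did.
Rps18, which sits at the head of the small subunit and also has a run of pyrimidines at its start, had 2797, 2919 and 2419 FPKM in Control and 2155, 2491 and 2492 in AngII. Rpl34, a large subunit protein, had 2494, 2599 and 2179.5 in Control and 1881, 2182 and 2347 in AngII. Rps15a, a protein of the small subunit, had 2162, 2267 and 1779 in Control and 1633, 1945 and 1876 in AngII. In all 3 of these genes AngII replicates 2 and 3 lay above Control replicate 3.

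At the other end, after Rps4l and Rpl5, stood Rpl7l1 (-0.03), Rpl31 (-0.05), Rpl23 (-0.05), Rpl4 (-0.05), Rps6 (-0.06) and Rps4x (-0.06). Rps4x, a small subunit protein encoded on the X chromosome, had 3344, 3586 and 2926 FPKM in Control and 3009.6, 3268 and 3132 in AngII. All 3 AngII libraries of Rps4x lay above Control replicate 3. Rpl31, near the exit tunnel, had 1105, 1120.1 and 969.8 in Control and 987.0, 1072 and 1021 in AngII, and Rpl23, a protein that also binds Mdm2, had 1659, 1888 and 1612 in Control and 1521, 1769 and 1684 in AngII. For Rpl23 the highest AngII library lay above 2 of the 3 Control libraries. The 29 small subunit genes had a median log2 fold change of -0.13 (range -0.20 to -0.06) and the 43 large subunit genes one of -0.11 (range -0.23 to -0.01). These ranges overlap, and the difference between subunits was not tested.

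Most of the variation in these mRNAs was shared by the abundant genes. For each abundant gene, the level in a library was expressed as log2(FPKM + 1) less the gene's mean over the 6 libraries. Over the 72 genes the median was 0.10, 0.15 and -0.07 for the Control libraries and -0.17, -0.02 and 0.01 for the AngII libraries. Control replicate 3 therefore lay below AngII replicates 2 and 3, and the 2 groups overlapped. In Control replicate 2 all 72 genes were above their own mean, and in AngII replicate 1 none was. The highest library was Control replicate 2 for 66 genes, Control replicate 1 for 4 and AngII replicate 3 for 2. The lowest was AngII replicate 1 for 67 genes and Control replicate 3 for 5. Over all genes tested the corresponding library medians stayed between -0.02 and 0.03.

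**Figure D3:**
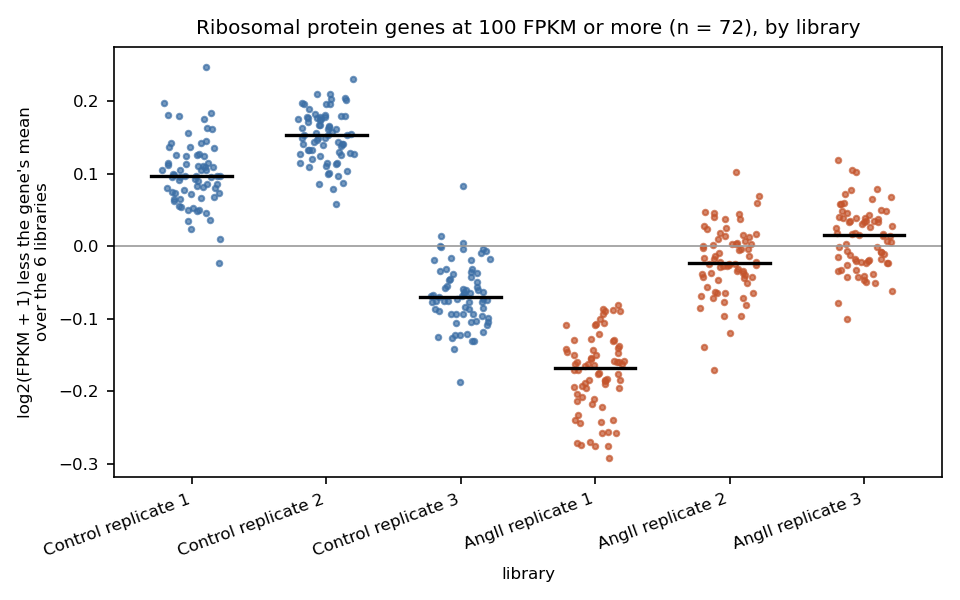
Each point is 1 of the 72 abundant ribosomal protein genes in 1 library (blue Control, orange AngII), as log2(FPKM + 1) less the gene's mean over the 6 libraries; black bars are medians. The points of a library move as a block, highest in Control replicate 2 (median 0.15) and lowest in AngII replicate 1 (-0.17), and Control replicate 3 (-0.07) lies below AngII replicates 2 and 3.

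The median of each library accounted for 84.8% of the squared deviations of the 72 genes from their means, and 68.7% of the squared deviations lay within groups. With 3 libraries a group, most of the squared deviation is expected within groups where the groups do not differ, and it can also lie there where they do. The share within groups therefore cannot tell whether treatment mattered. Pearson's r between the levels of 2 members over the 6 libraries had a median of 0.911 over 2556 pairs, which all share the same 6 libraries and their scaling. The coefficient of variation of a gene between libraries of a group had a median of 8.10% in Control and 7.54% in AngII, beside the median difference between groups of 7.83%. Leaving out AngII replicate 1 moved the median log2 fold change of the tested members from -0.12 to -0.06, with 72 of 77 lower in mean. Leaving out Control replicate 3 moved it to -0.18, with 74 of 76 lower. Without Control replicate 3, 13 members had an unadjusted limma p below 0.05, and still 0 of 76 passed after adjustment. The share of all genes below 0.05 without that library is not given here, so the 13 cannot be set against a background.

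The summed FPKM of the 80 genes made up 25.1%, 26.8% and 24.2% of all FPKM in the Control libraries and 24.0%, 25.6% and 23.4% in the AngII libraries. This is a share of summed FPKM and cannot be read as a share of mRNA molecules. The row of highest FPKM was mt-Co2 in every Control library, but Igkj1, mt-Nd1 and Gm24022 in AngII replicates 1, 2 and 3. The mean share of the ribosomal protein genes was 25.3% ± 1.32 (SD, n = 3) in Control and 24.3% ± 1.10 (SD, n = 3) in AngII. The groups overlapped and these means differed by less than the spread within Control. With the genes of the mitochondrial genome left out of the sum, the share was 27.9% ± 1.36 in Control and 26.2% ± 1.17 in AngII (SD, n = 3 each). The difference of 1.62 percentage points exceeded the SD within Control. The groups again overlapped, with Control replicate 3 (26.5%) below AngII replicate 2 (27.5%). The mitochondrial genes themselves held 9.92%, 8.39% and 8.83% of all FPKM in Control and 7.01%, 7.22% and 7.40% in AngII, with every AngII library below every Control library. One of them, mt-Co1, was listed at 0 in all 6 libraries and so adds nothing to these values. Summed FPKM of all genes ran from 613674 to 717286 per library. FPKM carries no read counts, so the sequencing depth behind these values is unknown.

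Several ribosomal proteins have a paralog that can take the same place in the ribosome. Rpl22l1, which can replace Rpl22, had 406.8, 390.7 and 320.8 FPKM in Control and 296.2, 333.7 and 319.2 in AngII. Control replicates 1 and 2 were the highest and Control replicate 3 lay below AngII replicate 2. Its log2 fold change was -0.23 ± 0.11 (SE, limma adjusted p = 0.9999). Rpl22 itself had 1316, 1392 and 1242 in Control and 1126, 1256 and 1315 in AngII (log2 fold change -0.10). Rpl22l1 therefore stood at 30.9%, 28.1% and 25.8% of Rpl22 in Control and 26.3%, 26.6% and 24.3% in AngII. The means of 28.3% ± 2.55 and 25.7% ± 1.26 (SD, n = 3 each) differed by less than the test can tell from the spread (two-sided exact permutation p = 0.3, adjusted p = 0.9 over 3 ratios). That test cannot go below 0.1 with 3 libraries against 3. A ratio within a library is free of the library's scaling.

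**Figure D4:**
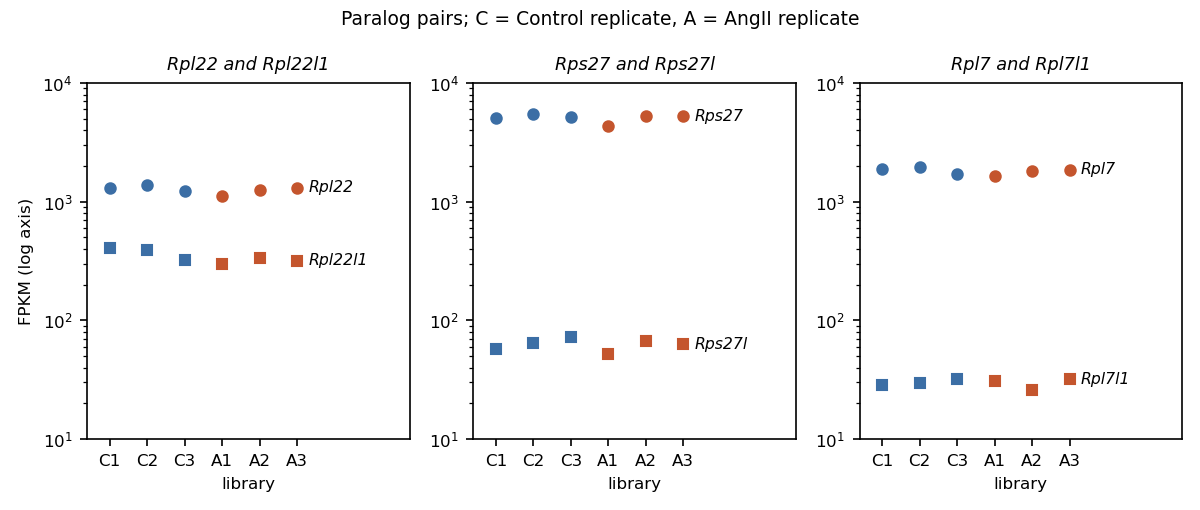
FPKM (log axis) of 3 parent genes (circles) and their paralogs (squares) in each library, C for Control and A for AngII replicates. Rpl22l1 lies within an order of magnitude of Rpl22, at 24.3% to 30.9% of it, while Rps27l and Rpl7l1 lie far below their parents.

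Rps27l, a p53-responsive copy of Rps27, had 57.3, 64.7 and 72.9 FPKM in Control and 51.7, 66.5 and 62.7 in AngII. The level of Rps27, and so any share of it, is uncertain, because a near-identical copy, Rps27rt, was listed at a mean of 8281 FPKM. As listed, Rps27l stood at 1.13%, 1.17% and 1.42% of Rps27 in Control and 1.19%, 1.26% and 1.19% in AngII. The groups overlapped (exact permutation p = 1). Rpl7l1, a nucleolar relative of Rpl7, had 28.5, 29.8 and 32.0 FPKM in Control and 30.6, 26.1 and 31.9 in AngII, against 1895, 1974 and 1727 and then 1632, 1807 and 1854 for Rpl7. Its share of Rpl7 was 1.51%, 1.51% and 1.86% in Control and 1.87%, 1.45% and 1.72% in AngII (exact permutation p = 0.9, adjusted p = 1).

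Paralogs known from other tissues (Rpl10l, Rpl3l and Rpl39l) were at or near 0. Low levels were also listed for Rps4l, Rps3a2 and Rps3a3, which have 1 exon and no coding part in GENCODE M21. Rpl10l, a testis paralog of the X-linked Rpl10, was listed at 0 in all 6 libraries, while Rpl10 had 2749, 2762 and 2590.1 FPKM in Control and 2360.2, 2552 and 2611 in AngII. Rpl3l, a paralog of heart and skeletal muscle, was listed at 0 in 5 libraries and at 0.0332 in the other, AngII replicate 3, while Rpl3, a core protein of the peptidyl transferase region, had 1695, 1705 and 1494 in Control and 1439, 1544 and 1591 in AngII. Rpl39l, a testis paralog of Rpl39, reached 1.34, 0.660 and 1.16 in Control and 0.575, 0.690 and 1.45 in AngII, at most 0.101% of Rpl39. Rps4l stood at 0.0845% to 0.156% of Rps4x and Rps3a2 at 0.0586% to 0.0820% of Rps3a1. Rps3a3 stayed at or below 0.180 FPKM in every library. Rps4l, the only tested member with a higher mean in AngII, had 2.83, 4.23 and 4.503 FPKM in Control and 3.99, 5.11 and 3.16 in AngII. AngII replicate 2 was the highest and Control replicate 1 the lowest, the groups overlapped, and its 95% limma interval ran from -0.42 to 0.55 on the log2 scale.

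The 8 genes with a blank name cell held 6 abundant ones. Rps27, a zinc-finger protein of the small subunit, had 5087, 5519 and 5143 FPKM in Control and 4349, 5257 and 5265 in AngII (log2 fold change -0.09). Rpl41, one of the smallest proteins of the cell, had 2597, 2746 and 2381 in Control and 1887, 2324 and 2389 in AngII (-0.23). Rpl24, which forms a bridge between the subunits, had 1197, 1248 and 1122 in Control and 954.5, 1084 and 1113 in AngII (-0.18). Of these 3, only Rpl24 had all AngII libraries below all Control libraries. Rps13 (-0.12), Rpl36a (-0.07) and Rpl39 completed the 6. Rps12l1 and Rpl6l stayed below 1 FPKM in every library. With these genes included, 81 of 82 tested genes were lower in mean in AngII and the median was again -0.12.

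Ribosomal protein genes have many processed copies in the genome, to which reads of the parent can align. By comparing coding sequences with GENCODE M21 transcripts (the whole transcript for Rps3a2, Rps3a3 and Rps4l, which have no coding part annotated), 73 of 80 members had at least 1 other gene with 95% identity over 90% of that sequence, with a median of 5 and up to 56 for Rpl21. Rows with a -ps name numbered 239, of which 31 reached a mean of 1 FPKM, the highest being Rps25-ps1 with 76.2 FPKM. Together they held 331.4 FPKM, or 0.198% of the summed level of the members. Copies under other names are not in this sum, for example Gm9701, a near-identical copy of Rps23, at a mean of 33.4 FPKM. Rps27rt, a near-identical copy of Rps27 outside the name rule, was listed at a mean of 8281 FPKM, so the level of Rps27 and of this copy is uncertain.

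Beyond the proteins of the ribosome itself, genes of ribosome production were read from the same fit, and none of them passed the test. Here lower and higher follow the sign of the log2 fold change. The 5 ribosome genes outside the name rule, among them Rack1, a scaffold on the small subunit, and Fau, which encodes Rps30, were all lower in mean (median -0.11). Rack1 had 1711, 1763 and 1553 FPKM in Control and 1456, 1537 and 1674 in AngII. Of 13 tested mRNAs of other translation proteins with a TOP tract, 10 were lower and 3 higher, with a median of -0.06. Eef1b2, an exchange factor of translation elongation, stood at -0.12 and Eif4b, an initiation factor, at 0.07. Eef1a1, the most abundant elongation factor in most cells, was listed at 0 in all 6 libraries.

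Nucleolar assembly factors numbered 32, of which 26 were lower and 6 higher (median -0.04). Nhp2, a protein of the H/ACA particles that modify ribosomal RNA, had 38.2, 41.3 and 38.0 FPKM in Control and 31.1, 34.8 and 34.4 in AngII. It was named for the lowest unadjusted p of the 32. All AngII libraries lay below all Control libraries for Nhp2, with a limma unadjusted p of 0.0182 and an adjusted p of 0.9999. Such a separation was seen in 5 of the 32 genes, against 3.48% of all genes tested. In 0 of the 32 did all AngII libraries lie above, against 2.36% of all genes. Subunits and factors of RNA polymerase I, which transcribes the ribosomal RNA, were lower in 11 of 14 (median -0.04). Of 6 dedicated chaperones of ribosomal proteins all had a log2 fold change below 0 (median -0.06), although Nap1l1 was level, with a mean of 161.6 FPKM in Control and 161.7 in AngII. Gar1 and Taf1b, likewise named after their values were seen, also counted as lower with log2 fold changes within 0.01 of 0 and means of 23.6 and 16.1 FPKM in both groups. Regulators of mTORC1 and of TOP mRNAs divided into 7 lower and 6 higher (median -0.0079), and transcription factors of ribosomal protein genes into 3 lower and 4 higher (median 0.03). Of 77 tested proteins of the mitochondrial ribosome, 67 were lower and 10 higher (median -0.08).

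The level and length of a gene went along with its difference between groups throughout the files. Of the other genes at 1 to 10 FPKM, 43.8% were lower in mean in AngII, with a median of 0.02. At 100 to 700 FPKM, 75.5% of 656 other genes were lower (median -0.05), and at 700 FPKM or more 64.2% of 67 were lower (median -0.07). Length was that of 1 GENCODE M21 transcript per gene, a principal coding one where annotated. Among other coding genes the median was -0.09 under 600 bases (n = 501), -0.07 from 600 to 1000 bases (n = 629, 73.9% lower) and 0.02 at 4000 bases or more (n = 2812). The 25 abundant members under 600 bases had a median of -0.15, the 30 members of 600 to 1000 bases one of -0.11 and the 15 members of 1000 to 2000 bases one of -0.11. Other coding genes of 1000 to 2000 bases had a median of -0.03 (n = 2535). In each of these 3 length classes the members' median thus lay below that of other genes, and the part of length in the difference was not tested.

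Markers of CD4+ T cells were present in every library: the 10 listed genes summed to 3358, 3205 and 2865 FPKM in Control and 2991, 2880 and 3189 in AngII. Their lowest library was Control replicate 3, while the ribosomal protein genes were lowest in AngII replicate 1. Neutrophil markers, 8 of 8 tested higher in mean in AngII, summed to 9.30, 9.14 and 48.7 in Control and 26.3, 77.8 and 82.7 in AngII. Platelet markers, 7 of 7 higher, summed to 104.6, 117.6 and 272.4 in Control and 239.4, 173.4 and 214.1 in AngII. Macrophage markers, 9 of 10 higher, summed to 1231 to 2077 in Control and 1533 to 2997 in AngII. B cell markers, 7 of 7 lower, summed to 35.2 to 112.8 in Control and 33.7 to 110.1 in AngII. Control replicates 1 and 2, with the highest ribosomal protein levels, had the lowest neutrophil and platelet sums. Not all lists followed this order. The macrophage sum was lowest in Control replicate 1, but the B cell sum was lowest in AngII replicate 1 and the NK cell sum in AngII replicate 2. AngII replicate 3 had the highest neutrophil sum, while its ribosomal protein median lay above those of Control replicate 3 and AngII replicates 1 and 2. Immediate early and stress genes, which respond to handling of cells, were lower in mean in 15 of 16 (median -0.38) and summed to 4590, 4961 and 3011 in Control and 2740, 4206 and 3115 in AngII. Their 2 lowest libraries, AngII replicate 1 and Control replicate 3, were also the 2 lowest for the ribosomal protein genes. The part of these markers in the ribosomal protein levels was not tested.

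In the authors' deposited table of the same comparison, 78 of the 80 genes were found and 75 were tested. None of the 75 had a q-value below 0.05 in the authors' deposited table, and none had a p-value below 0.05. The lowest p-value there was 0.0769, for Rpl22l1, the gene that was also lowest by limma. No direction was taken from the authors' deposited table.

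**Figure D5:**
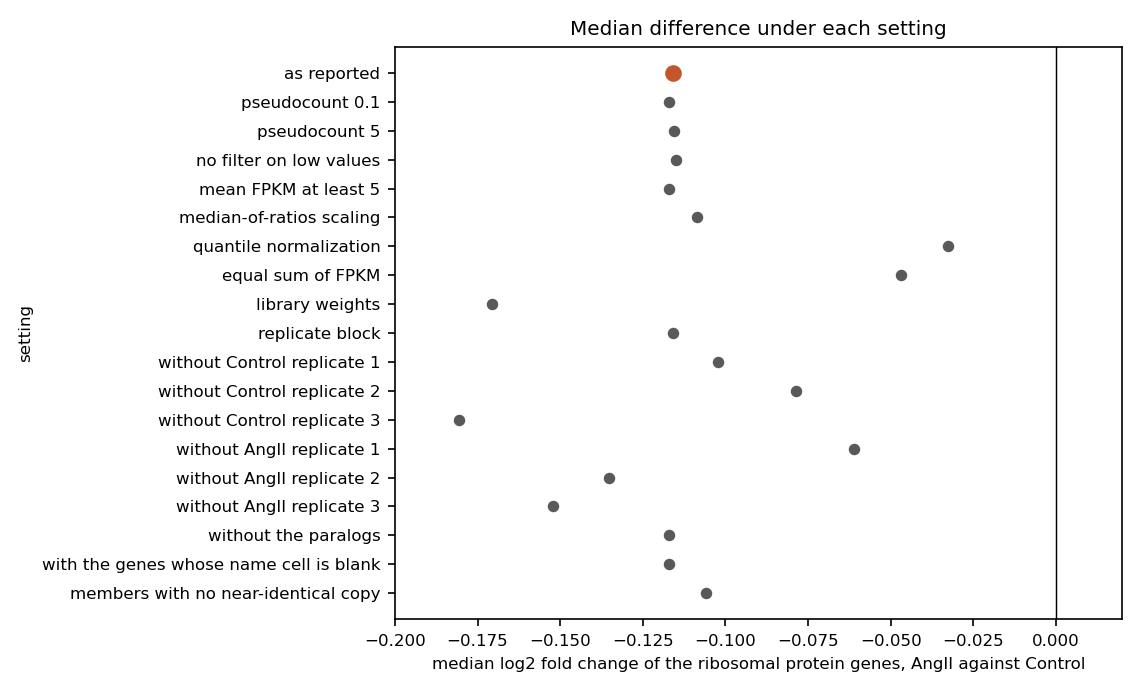
Median log2 fold change of the ribosomal protein genes tested (x axis) under each processing setting (y axis), with the reported value in orange and the alternatives in grey. All points lie below 0, from -0.18 without Control replicate 3 to -0.03 after quantile normalization.

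The size of the shared difference depended on how libraries were scaled. After quantile normalization, which gives every library the same distribution, the median of the 76 genes was -0.03 and 54 of 76 were lower in mean. With each library scaled to the same summed FPKM it was -0.05, with 68 of 76 lower, and the median over all genes tested was then 0.06. Median-of-ratios scaling gave -0.11 with 75 of 76 lower. With library weights it was -0.17, 22 members had an unadjusted limma p below 0.05 and the lowest adjusted p was 0.275. The share of all genes below 0.05 with these weights is not given here, so the 22 cannot be set against a background. No member passed the adjusted threshold under any of these settings.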

How the data were processed

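Levels were deposited by the authors as FPKM per gene and library. Trimmomatic 0.32, TopHat2 2.1.1, Cuffdiff and the build GRCm38.p3 are named, without their order, per the submitters' processing notes; for the annotation, the Cuffdiff version and all settings the sources used here give nothing. P-values and q-values were deposited by the authors in a table of their own comparison and used only as such. No column of another sample was present (0 columns).

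Groups were taken from the labels. Genes averaging 1 FPKM or more were compared on log2(FPKM + 1) in 1 fit with limma 3.58.1 (R 4.3.3, trended eBayes, two-sided, Benjamini-Hochberg over all genes tested, adjusted p below 0.05), so fold changes of low genes are understated. Ratios of paralogs used a two-sided exact permutation test. Abundant genes averaged 100 FPKM or more. The genes and lists were chosen with earlier results of these data known. Values in every library were given for the 8 genes of lowest and of highest fold change, the 8 of highest level, those listed at 0 and a fixed set by role, and other members by range; listed genes outside were named from the 3 of lowest unadjusted p. Genes with a blank name cell were named by identifier. The fit was first tested on simulated data. Alternatives covered the pseudocount, filter, scaling, eBayes options, library weights, replicate block and leaving out each library. The number of libraries limits precision, and depth is unknown from FPKM. A single member is counted in the totals and is not reported here by name.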

Additional observations from a re-analysis of the deposited data

How the results depend on the processing

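No ribosomal protein gene passed the threshold under any alternative run (0 in each), including an adjusted p below 0.1, and the median log2 fold change kept its sign in each of the 18 for which it was computed. Of 628 values of 37 named genes under alternatives other than centring on the ribosomal protein genes, which moves all members alike, 31 had the other sign, 11 of them after quantile normalization and 7 with equal sums, and 0 passed the threshold. Over all genes, 4 passed as reported, 7 with no filter on low values, and 4 to 9 when 1 library was left out. Leaving out 1 library in turn gave a member median of -0.18 to -0.06, a difference in the share of summed FPKM of -1.61 to -0.278 percentage points (-0.997 as reported), and log2 ratio differences of -0.20 to -0.07 for Rpl22l1 to Rpl22 (-0.13 as reported), -0.085 to 0.081 for Rps27l to Rps27 (-0.02 as reported) and -0.034 to 0.15 for Rpl7l1 to Rpl7 (0.05 as reported). The sign of the Rps27l ratio turned without Control replicate 3 (0.081). That of the Rpl7l1 ratio turned in 3 such cases: -0.034 without AngII replicate 1, -0.0025 without Control replicate 1 and -0.00045 without Control replicate 2. The cause was not tested. Replicate numbers did not pair the libraries, with correlations of same-numbered deviations of -0.08, -0.02 and -0.04; with the replicate number as a block, 3 genes and 0 members passed. Centring on the ribosomal protein genes, adding the genes with a blank name cell and keeping only members with no near-identical copy (5 genes, median -0.11) were chosen after seeing the data. A member's 95% interval reached 0.23 to either side on the log2 scale (median), so single differences of the size seen were not detectable with 3 libraries a group.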
